A study of Mus musculus with 26 samples.

Results

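An oocyte stores messenger RNAs with short poly(A) tails and keeps them silent, and after meiotic maturation and fertilization it translates and then removes them. Storage rests on RNA-binding proteins such as YBX2, ZAR1, ZAR1L, CPEB1 and DAZL, whereas clearance rests on the CCR4-NOT deadenylase, which BTG4 brings to its targets, on the poly(A)-binding protein PABPN1L and on the uridyl transferase TUT4. By the 8-cell stage of the mouse the embryo transcribes its own genome, and most RNAs inherited from the oocyte have been degraded.

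The 10 genes described here encode these storage and clearance factors (Btg4, Cnot7, Cnot6l, Pabpn1l, Tut4, Ybx2, Cpeb1, Dazl, Zar1 and Zar1l). They were picked by name for their known role, and all 10 were found among the 55487 genes of the expression table. RNA and DNA were measured in the same single blastomeres by scRR-seq, in which magnetic beads hold the chromatin while the RNA in the supernatant is converted to cDNA by scRamDA-seq. The method reads total RNA, so unspliced and non-polyadenylated RNA is included. The study reports that the supernatant is mainly cytoplasmic and that some nuclear and weakly expressed RNA is missed, which also bears on low values. Both embryos came from in vitro fertilization with gametes of C57BL/6 mice, carried no treatment and no engineered allele, and were taken apart by hand at the 8-cell stage. Embryo 1 contributed 3 cells with values (cells 1, 6 and 7) and embryo 2 contributed 6 (cells 2, 3, 5, 6, 7 and 8). The other 4 cells of the sample list were not analysed here. Each embryo is 1 biological replicate, so differences between embryos were described and not tested, and an SD here is the spread between cells of an embryo.

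Levels are given in TPM, the share of a cell's transcripts that a gene takes after division by transcript length. A comparison between genes, paralogs included, therefore also depends on whether reads were assigned to long or short annotated transcripts. Because TPM carries no read depth, a value of 0 is written as listed at 0 and not as absence. The number that closes each sample title ran from 11 to 17 in 3 cells and from 20 to 25 in 6 cells. According to the study's sample list these ranges were prepared by the protocols scRR3 and scRR1, which differ in the volume of lysis buffer. The study describes scRR1, used for the upper range, as reading embryo transcripts more from their 3′ ends and as detecting fewer of them, which bears on values of 0 and on which annotated transcript receives the reads. Embryo 1 has 1 cell in the lower range and embryo 2 has 2, so the differences of the factors are also given within each range. In the DNA of the embryo 1 cells almost all bins were called unreplicated, with 0.00385% to 3.54% called replicated. In that of the embryo 2 cells 62.4% to 80.5% were called replicated. The call rests on copy number relative to the rest of the genome, so a cell past S phase is not told from a cell before it, and the study classed embryo 1 cells as lying outside S phase. Embryo and replication state cannot be told apart in these cells. Between 11058 and 13319 genes per cell had a TPM above 1, and mitochondrial RNA took 4.28% to 6.77% of the TPM in embryo 1 and 5.98% to 18.2% in embryo 2. Of 7 blastomere markers, 6 were above 1 TPM in every cell (Pou5f1, 117.17 to 345.54 TPM, was one of them), and Sox2 was at or under 0.60 TPM. Cumulus and granulosa markers summed to 0 TPM in every cell but 3 of embryo 2, with a highest sum of 6.13 TPM that came from Ptx3 alone in cell 6, and 5 of the 8 were listed at 0 throughout. Markers of sperm summed to at most 1.62 TPM.

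The factors spanned a wide range of levels (the plot of log2(TPM + 1) by gene and cell). Only Cnot7 and Tut4 were above 1 TPM in all 9 cells, 2 of the 8 factors with a mean TPM above 1. Of the 13612 nuclear genes with a mean TPM above 1, 52.9% were, a share that is not matched for level. Between 6 and 8 of the 10 factors passed 1 TPM in any 1 cell, and their summed level lay between 77.73 and 221.97 TPM. Cnot7 was the highest factor in 8 of the 9 cells and Tut4 was the highest in embryo 1 cell 1. With Cnot7 left out, the sum fell to between 14.13 and 112.20 TPM, with all 3 embryo 1 cells (44.90 to 112.20) within or above the range of embryo 2 (14.13 to 52.35). Cells 1 and 6 of embryo 1 lay above that range, and single genes carried most of their sums. Tut4 gave 62.91 of the 87.97 TPM in cell 6, while cell 1 drew 48.92 TPM from Tut4 and 34.99 from Dazl. No embryo 2 cell had Tut4 above 24.01 TPM. The higher sums are thus not a shift of the factors as a group. The median tested gene had a mean of 9.70 TPM, and of the factors only Cnot7 and Tut4 exceeded it.

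**Figure D1:**
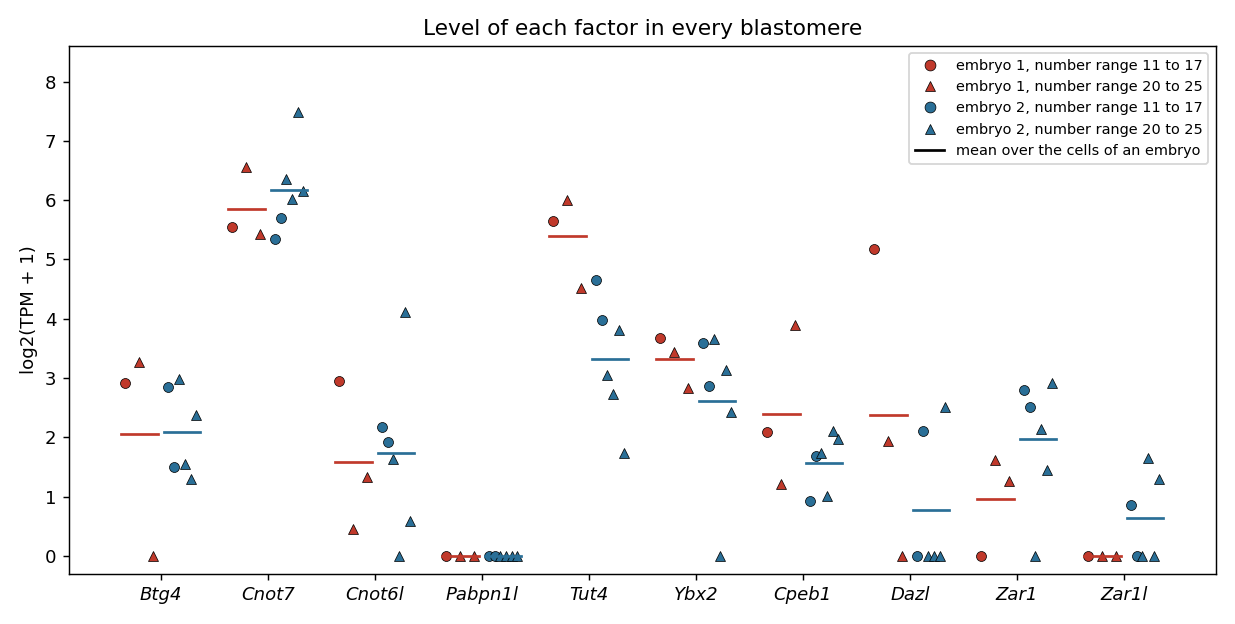
Level of each of the 10 factors on a log2(TPM + 1) axis in the 9 blastomeres, with embryo 1 in red, embryo 2 in blue, circles for title numbers 11 to 17, triangles for 20 to 25 and a line for the mean over the cells of an embryo. Cnot7 and Tut4 stand above the others, Pabpn1l is listed at 0 in all 9 cells, and 7 factors in all reach 0 in at least 1 cell.

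Cytoplasmic polyadenylation, the step that CPEB1 controls in the oocyte, is directed by a U-rich element close to the poly(A) signal, so the 3′ ends of the factors' own transcripts were read for both. The cytoplasmic polyadenylation element was searched as TTTTAT or TTTTAAT and the signal as AATAAA or ATTAAA, on the sense strand, in the last 100 bases of the longest protein-coding transcript of each gene (GENCODE M21, GRCm38/mm10). The first 3 sites below are the element in the factors that had it, and the last 2 show the signal of the factors whose levels differed by over 2-fold toward embryo 1. The capitals mark the match and the lower-case letters its flanks, 5′ to 3′.
Btg4-201, element 61 bases from the 3′ end: aaatccctTTTTATgtcttttt
Cnot7-211, element 14 bases from the 3′ end: aaggtacaTTTTATatcaataa
Ybx2-201, element 56 bases from the 3′ end: tgaagccaTTTTATgaactgtc
Dazl-201, signal 15 bases from the 3′ end: tatacacgAATAAAaccttttt
Tut4-201, signal 14 bases from the 3′ end: tttaagttAATAAAtctttttg
The element was thus present in 3 of 10 factors and in 16.7% of the 21769 protein-coding genes with such a window, and the signal in 8 of 10 and 75.1%. Btg4 and Ybx2 had the element and neither hexamer. In Cnot7-211 the element was closely followed by AATAAA, and this transcript carried at most 1.63 TPM in any cell. When the transcript with the highest mean TPM was read in its place, the 3 genes with the element were Btg4, Tut4 and Ybx2. The Pumilio motif TGTANATA (4.0% of all genes) and the DAZL motif TTTGTTT (5.66%) were in none of the 10 longest transcripts within this window. In the transcripts with the highest mean TPM the Pumilio motif was in 2 (Cnot7 and Tut4), the DAZL motif in 2 (Cnot7 and Ybx2) and the signal in 6 of 10, and in the last 200 bases of the longest transcripts Ybx2 had the DAZL motif. A match is a description of these letters only.

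Btg4 (chr9:51060901-51119875, + strand) encodes the adaptor that recruits CCR4-NOT to maternal mRNAs during the oocyte-to-embryo transition. It was at 6.56, 8.66 and 0 TPM in cells 1, 6 and 7 of embryo 1. In embryo 2 its lowest, median and highest levels were 1.47, 3.08 and 6.92 TPM. The highest and the lowest of the 9 cells both belonged to embryo 1, and the embryos overlapped. The mean log2(TPM + 1) of embryo 2 less that of embryo 1, called the difference from here on, was 0.03, and the pooled SD between cells was 1.14. Without embryo 1 cell 7, the cell at 0, the difference was -1.001, and it was -0.75 in the lower number range and 0.42 in the upper. All of the Btg4 signal fell on protein-coding transcripts, mainly Btg4-201 and Btg4-203, which start at 93.4% and 76.3% of the length of the annotated gene.

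Of the related BTG/TOB genes, which share the deadenylase-binding domain, Btg1 reached 125.97 TPM and was higher than Btg4 in 8 of 9 cells. Btg3 (4.87 to 53.41 TPM) was higher in 7 of 9 and Tob1 (0.48 to 16.95 TPM) in 5 of 9. Btg2 was higher in 1 cell and Tob2 in 2. Btg4, known mainly from the oocyte, was thus below Btg1 in most of these blastomeres but was still measured in 8 of them.

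Cnot7 (chr8:40492540-40515847, − strand) encodes a catalytic deadenylase subunit of CCR4-NOT and was the most abundant factor. It stood at 45.96, 93.79 and 42.20 TPM in embryo 1, a mean of 60.7 ± 28.8 (SD, n = 3 cells). In embryo 2 it ranged from 39.51 to 178.33 TPM around a median of 66.8 TPM, a mean of 80.5 ± 50.1 (SD, n = 6 cells). Embryo 2 held both the lowest and the highest cell, so the embryos overlapped. The difference was 0.32 on the log2 scale (pooled SD 0.71), with -0.04 in the lower and 0.50 in the upper number range. It was 0.06 without embryo 2 cell 7, the cell at 178.33 TPM. That cell carried 120.10 TPM on Cnot7-206 and 35.78 TPM on Cnot7-203, both protein-coding. Its paralog Cnot8, the alternative subunit at the same position of the complex, lay between 41.21 and 93.72 TPM and exceeded Cnot7 in 3 of 9 cells. These are the 3 cells of the lower number range, where Cnot8 minus Cnot7 in log2(TPM + 1) averaged 0.88 ± 0.32 (SD, n = 3). In the 6 cells of the upper range Cnot7 was the higher one throughout, with a mean of -0.35 ± 0.39 (SD, n = 6), so the order of the pair turned with the range.

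Which transcript carried Cnot7 varied between cells. Cnot7-201 led in 3 cells with 36.79 TPM in embryo 1 cell 1, 38.45 in embryo 2 cell 3 and 16.17 in embryo 2 cell 2, which are the 3 cells of the lower number range. It made up 65.6% of Cnot7 on average in that range and 2.87% in the upper range, where Cnot7-206 (50.3%) and Cnot7-203 (37.5%) led. Protein-coding transcripts together held 88.4% ± 7.3 of Cnot7 over 9 cells. The gene is overlapped on the other strand by Vps37a at one end (22.09 to 106.14 TPM) and by Zdhhc2 (1.23 to 43.78 TPM). Whether the quantification used strand is not given in the sources used here, and without it reads in the shared bases cannot be told apart.

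Cnot6l (chr5:96070333-96164171, − strand) encodes the other type of catalytic subunit. The embryo 1 cells had 6.73, 0.37 and 1.52 TPM. The embryo 2 cells spread from 0 to 16.31 TPM around a median of 2.46 TPM. The highest and the lowest cells were both in embryo 2 and the embryos overlapped. The difference of 0.16 was far smaller than the pooled SD of 1.38 and changed sign when embryo 1 cell 6 was left out (-0.40) and between the lower (-0.91) and the upper (0.69) number range. Embryo 2 cell 7 was the highest cell for Cnot6l as it was for Cnot7. The paralog Cnot6, at 12.99 to 62.07 TPM, was higher than Cnot6l in 9 of 9 cells, by 2.91 ± 1.42 on the log2 scale (SD over 9 cells). The full-length Cnot6l-210 and the shorter Cnot6l-202 carried most of the signal. Across the 11 CCR4-NOT subunits listed, none passed the 2-fold difference between embryos in either direction, and the median difference was 0.06. Cnot1, the scaffold, was highest at a mean of 147.6 TPM, followed by Cnot7 (73.9) and Cnot8 (71.1), and 10 of the 11 were above 1 TPM in every cell.

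Pabpn1l (chr8:122619471-122622739, − strand) encodes the oocyte poly(A)-binding protein that works with BTG4 in maternal mRNA decay. It was listed at 0 in all 9 cells, in both of its annotated transcripts. Its somatic relative Pabpn1 lay between 155.05 and 322.28 TPM in the same cells. Of the other poly(A)-binding proteins, Pabpc1 had a mean of 1068 TPM and Pabpc4 of 488.4 TPM, while the oocyte form Pabpc1l reached at most 2.29 TPM and was detected in 2 cells. Pabpn1l lies inside Gm20388, a long annotated gene on the other strand at 0 to 11.97 TPM. The 3 poly(A)-binding genes that could be compared had a median difference of -0.01 between embryos, with none past 2-fold.

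Tut4 (chr4:108459426-108559421, + strand) encodes a terminal uridyl transferase that tags deadenylated mRNA for decay. In embryo 1 it was at 48.92, 62.91 and 21.98 TPM (mean 44.6 ± 20.8 SD, n = 3 cells). In embryo 2 the 6 cells were at 24.01, 14.72, 7.30, 5.64, 13.03 and 2.32 TPM (mean 11.2 ± 7.81 SD, n = 6 cells). The ranges met at a single point, where embryo 2 cell 2 (24.01) was above embryo 1 cell 7 (21.98). The difference was -2.06 on the log2 scale, more than 2 times the pooled SD of 0.97, and stayed between -2.50 and -1.74 with any 1 cell left out.

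Within the lower number range, Tut4 was 1.33 lower in embryo 2 on the log2 scale (a difference of -1.33), and within the upper range the difference was -2.43. In both ranges every embryo 2 cell was below every embryo 1 cell, as it was for 4.34% of the 13612 tested genes. Tut4 also moved with the number range, with a difference of -1.11 for the upper minus the lower range and a median of -0.29 over all tested genes, and the part of the range in its level was not tested beyond these values. The related enzyme Tut7, which acts on the same substrates, was at 10.94 to 29.13 TPM. Tut7 was higher than Tut4 in 1 of 3 embryo 1 cells and in 5 of 6 embryo 2 cells. The mean Tut7 minus Tut4 difference was -1.26 in embryo 1 and 1.13 in embryo 2 on the log2 scale (SD over all 9 cells 1.501).

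In TPM, the Tut4 signal fell largely on a short annotated transcript. Tut4-205, protein-coding with 587 bases in 3 exons, starts at 96.3% of the length of the gene and was the leading transcript in 9 of 9 cells, with 67.3% ± 18.4 of the signal. The transcripts that span the whole gene, Tut4-201 (6054 bases) and Tut4-202 (5865 bases), together held 3.06, 8.57 and 4.04 TPM in embryo 1. In embryo 2 they held 2.21, 2.84, 0, 0, 0.34 and 0 TPM, so the cells of the embryos did not overlap in this sum. The sum was formed after the values were seen, and the share of all genes that separate on such a sum was not computed. Since TPM divides the reads of a transcript by its length, reads placed on a short transcript weigh more than on a long one. The lead of Tut4-205 is one of TPM and is lost in most cells once length is multiplied back. When each transcript's TPM was multiplied by its length in kilobases, Tut4 was 38.0 to 82.4 in embryo 1 and 1.97 to 25.9 in embryo 2. On that scale the difference was -2.44 (pooled SD 1.17) with no overlap, which 2.48% of tested genes showed in the same direction.

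**Figure D2:**
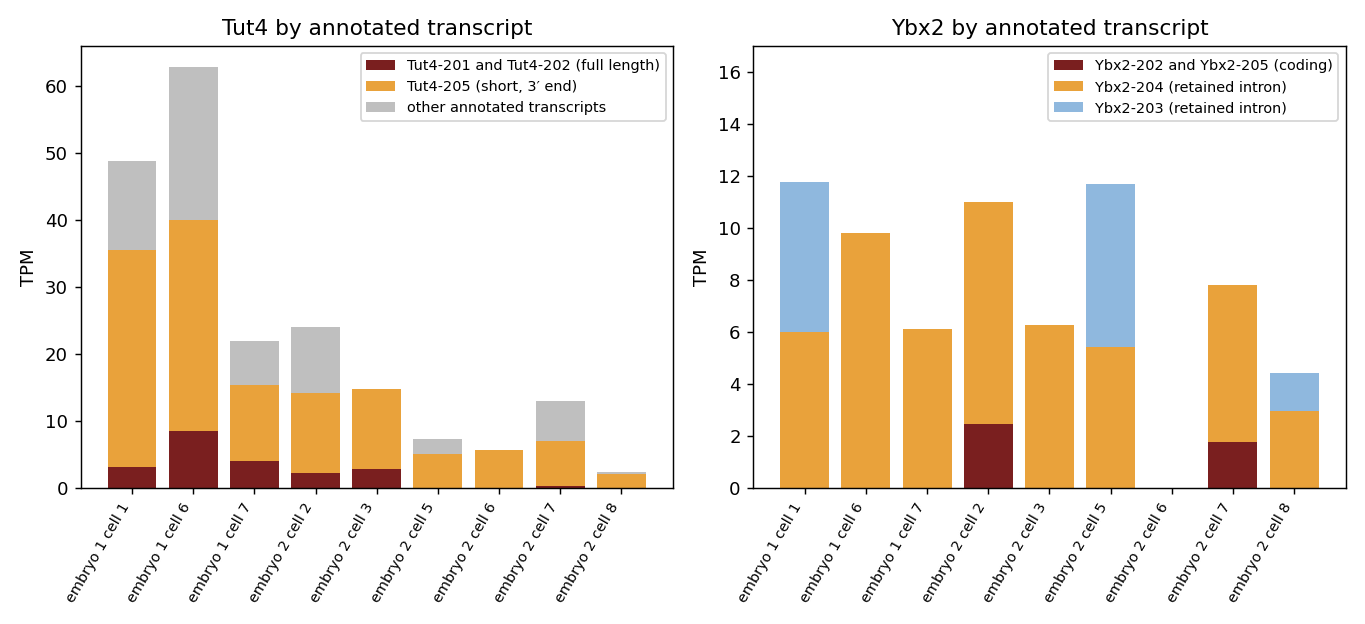
TPM of Tut4 (left) and Ybx2 (right) in each of the 9 blastomeres, as bars stacked by annotated transcript. Tut4-205 is the tallest single segment of Tut4 in every cell, and the retained-intron transcripts make up nearly all of Ybx2. The full-length segment of Tut4, a sum formed after the values were seen, is 3.06 TPM or more in embryo 1 and 2.84 TPM or less in embryo 2.

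Ybx2 (chr11:69935796-69941605, + strand), also known as MSY2, encodes the germ-cell Y-box protein that binds and stabilizes stored mRNA in the oocyte. It was at 11.77, 9.80 and 6.12 TPM in embryo 1. In embryo 2 it ranged from 0 to 11.68 TPM with a median of 7.04 TPM, the 0 being cell 6. The embryos overlapped, and the difference of -0.70 (pooled SD 1.17) was -0.18 without that cell, -0.45 in the lower and -0.82 in the upper number range. The Y-box paralogs were far higher, with Ybx1 at 714.62 to 998.84 TPM and Ybx3 at 273.08 to 475.20 TPM, each above Ybx2 in 9 of 9 cells. On the log2 scale Ybx1 exceeded Ybx2 by 6.89 ± 1.18 and Ybx3 by 5.86 ± 1.17 (SD over 9 cells).

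Little of the Ybx2 signal was on transcripts that encode the protein. The full-length Ybx2-201 (1673 bases) was listed at 0 in every cell, and the other coding transcripts had signal in 1 cell each, at 2.44 and 1.77 TPM. The retained-intron transcript Ybx2-204 (679 bases), which covers the gene from 81.7% of its length to the 3′ end, led in 7 of the 8 cells with signal at 2.97 to 9.80 TPM. Ybx2-203, a second retained-intron transcript of 489 bases, had 5.77 TPM in embryo 1 cell 1, 6.26 in embryo 2 cell 5 and 1.43 in embryo 2 cell 8. Protein-coding transcripts held 5.61% ± 10.4 of Ybx2 over 8 cells, whereas they held over 50% on average in the other 8 factors with signal. Among 8395 protein-coding genes that also have other transcripts, 27.3% had at least 50% of their signal on transcripts that are not protein-coding, and the median gene had 20.5%. The division among transcripts is a model estimate by RSEM, and reads from the shared 3′ end can be placed on more than one of them. The mean share of TPM on Ybx2-204 was 76.2% in the lower and 78.2% in the upper number range, and that on Tut4-205 was 65.7% and 68.2%. These are shares of TPM, in which a short transcript weighs more, and the part of the protocol in them was not tested.

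Cpeb1 (chr7:81347026-81455465, − strand) encodes the protein that binds the cytoplasmic polyadenylation element. Cells 1, 6 and 7 of embryo 1 had 3.23, 1.32 and 13.88 TPM. The 6 cells of embryo 2 lay between 0.90 and 3.29 TPM, with a median of 2.27 TPM. Embryo 1 cell 7 was the only cell above 4 TPM, and the other cells of the embryos overlapped. The difference was -0.82 (pooled SD 0.84), with -0.77 and -0.85 in the lower and upper number ranges, and -0.08 without embryo 1 cell 7. In that cell 13.47 TPM were on Cpeb1-202, a processed transcript of 335 bases that is not protein-coding and had no signal in the other cells. Its protein-coding transcripts were then at 0.41 TPM in this cell. In embryo 2 the coding Cpeb1-203 carried the gene, with 86.9% of the signal on average. When TPM was multiplied by transcript length, the difference in Cpeb1 was 0.17, with the opposite sign.

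The paralogs Cpeb2, Cpeb3 and Cpeb4, which bind a related element in other cells, were at 2.05 to 80.65, 5.26 to 17.79 and 1.86 to 16.79 TPM. Cpeb2 and Cpeb3 were each higher than Cpeb1 in 8 of 9 cells and Cpeb4 in 6 of 9. Cpeb2 itself had a difference of -1.59 (pooled SD 1.31), with -3.53 in the lower number range and -0.62 in the upper. Its highest cell, 80.65 TPM, was embryo 1 cell 1, and without it the difference was -0.82, under the 2-fold line.

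**Figure D3:**
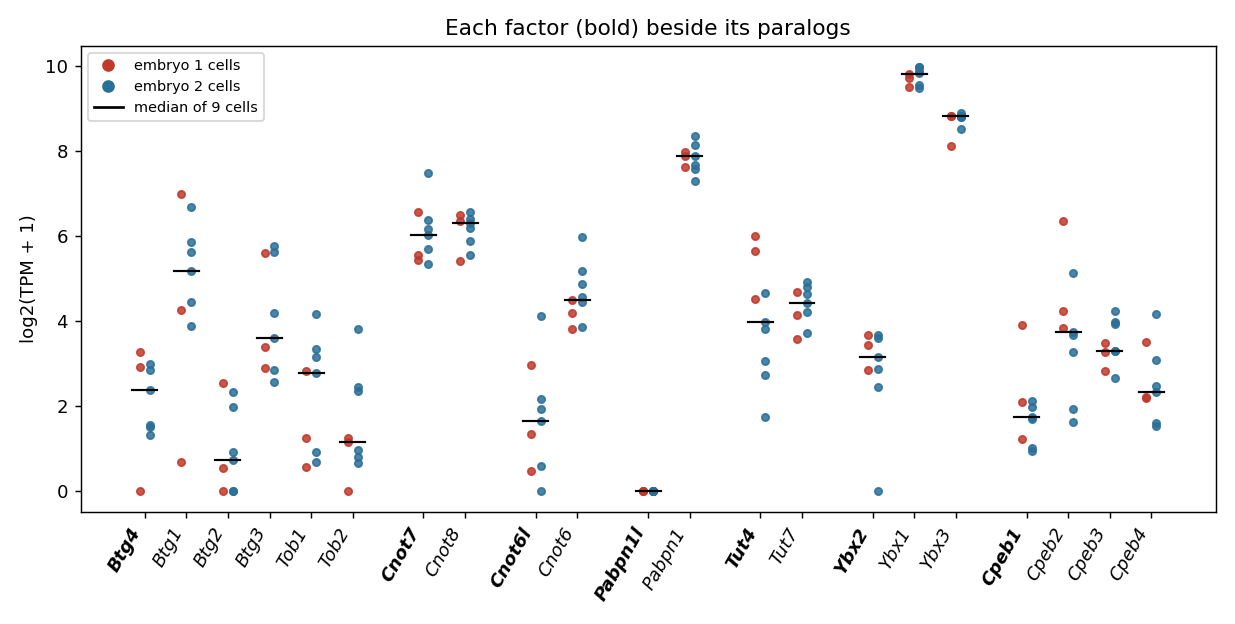
Level on a log2(TPM + 1) axis of 7 factors (bold) and their paralogs, with 1 point for each of the 3 embryo 1 cells (red) and 6 embryo 2 cells (blue) and a line at the median of 9 cells. Pabpn1, Ybx1, Ybx3 and Cnot6 lie above their partners in 9 of 9 cells, whereas Cnot8 exceeds Cnot7 in 3 and Tut7 exceeds Tut4 in 6.

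Dazl (chr17:50279395-50293636, − strand) encodes a germ-cell protein that promotes translation of mRNAs during oocyte maturation. Its embryo 1 levels were 34.99, 2.85 and 0 TPM. The embryo 2 levels were 0, 3.29, 0, 0, 0 and 4.68 TPM. It was listed at 0 in 5 of 9 cells, more than any factor but Pabpn1l and Zar1l, and embryo 1 cell 1 was more than 7 times higher than any other cell. The SD of its log2(TPM + 1) over the 9 cells, 1.80, was the largest of the 10 factors, with a median of 0.87 over all tested genes. The difference was -1.60 (pooled SD 1.72). It was -0.20 without embryo 1 cell 1, so the call past 2-fold rested on that single cell, and the difference was -4.12 in the lower number range, which holds it, and -0.35 in the upper.

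In embryo 1 cell 1 the Dazl signal was on transcripts that encode the protein, 19.74 TPM on Dazl-201 (2976 bases) and 8.25 on Dazl-202, with the rest on Dazl-204. In embryo 2, the 2 cells with signal had 66.98% of it on the retained-intron Dazl-206 and 33.02% on Dazl-204. Markers of cumulus and granulosa cells were at 0 in embryo 1 cell 1 and the sperm marker Prm1 was at 1.55 TPM.

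Zar1 (chr5:72576806-72581254, − strand) encodes a protein that holds stored maternal mRNAs in the oocyte, and Zar1l (chr5:150507055-150518164, − strand) encodes its close relative. For Zar1 the embryo 1 cells had 0, 2.06 and 1.40 TPM. The embryo 2 cells had 5.95, 4.70, 0, 3.40, 1.73 and 6.51 TPM. The 4 highest cells were in embryo 2, but embryo 2 cell 5 was at 0 and cell 7 below embryo 1 cell 6, so the embryos overlapped. The difference of 1.01 (pooled SD 1.03) lay just past the 2-fold line, was 2.65 in the lower and 0.19 in the upper number range, and ran from 0.53 to 1.40 with 1 cell left out. Multiplied by transcript length it was 0.80, under the line.

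No cell of embryo 1 had Zar1l above 0. In embryo 2, 3 cells were at 0 and the others at 0.81, 2.13 and 1.46 TPM. Its mean of 0.49 TPM was under the floor of 1 TPM for a comparison. Zar1 was above Zar1l in 7 of 9 cells, and both were at 0 in embryo 1 cell 1 and embryo 2 cell 5.

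Of the 10 factors, 8 had a mean TPM above 1 and entered the comparison between embryos. Zar1 was higher in embryo 2 by 2-fold or more (1 of 8, beside 7.60% of all tested genes) and Tut4 and Dazl were lower (2 of 8, beside 10.7%). None of the 8 separated the embryos without overlap, and 3.34% of all tested genes did. The median difference over the 8 was -0.33, with -0.04 over all tested genes. With 8 genes compared, the counts give no ground to set the factors apart from the background. Tut4 was the only factor that passed 2-fold in both number ranges, with every cell left out in turn and on the scale of TPM times length. The share of all tested genes that meet these conditions together was not computed, and the length scale was chosen after the data were seen.

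**Figure D4:**
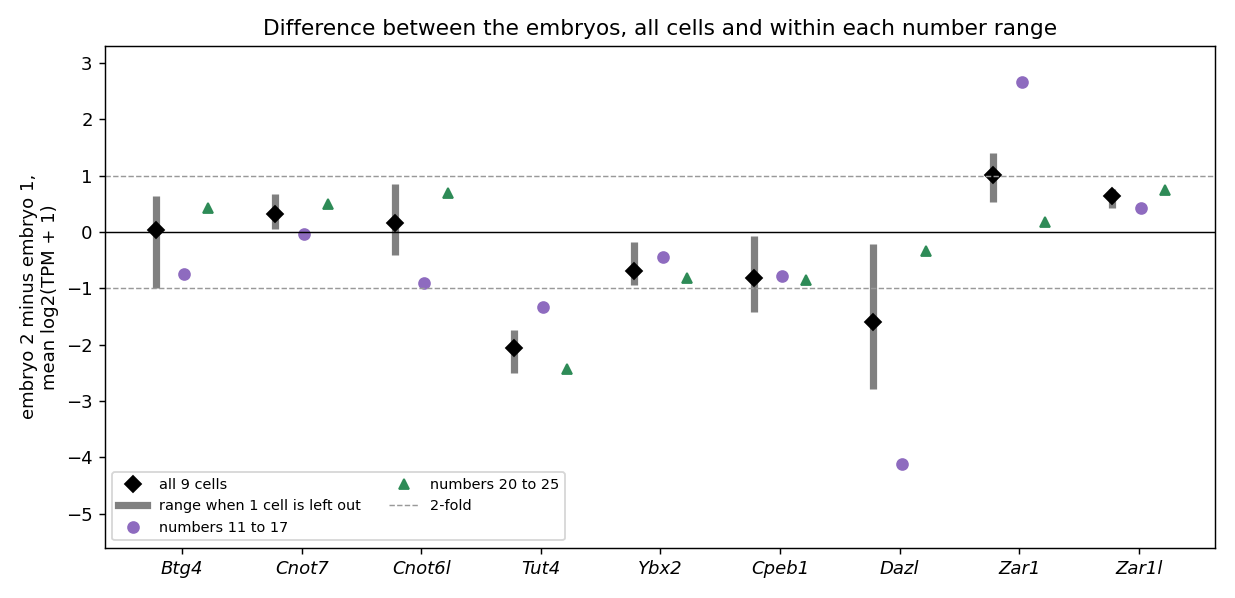
Mean log2(TPM + 1) of embryo 2 less that of embryo 1 for the 9 factors with signal, over all 9 cells (black diamond, with the grey bar giving the range when 1 cell is left out), within numbers 11 to 17 (purple circle) and within numbers 20 to 25 (green triangle). Tut4 lies below the dashed 2-fold line in all 3, while Dazl and Zar1 pass their lines in the lower range and over all cells and lie at -0.35 and 0.19 in the upper range.

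Between the number ranges, Dazl (a difference of -1.68) and Tut4 (-1.11) were lower by 2-fold or more in the 6 cells of the upper range, beside 16.1% of all tested genes, and none was higher, beside 4.63%. The Dazl value rested on embryo 1 cell 1, being -0.31 without it, -4.20 within embryo 1 and -0.42 within embryo 2. Tut4 was at -0.38 within embryo 1 and -1.48 within embryo 2, and at -0.67 without embryo 1 cell 1. The median over the 8 factors was -0.65 and that over all tested genes was -0.29. Cnot7 was 0.80 higher and Cpeb1 0.42 higher in the upper range, the 2 tested factors with a positive value. Being listed at 0 in at least 1 cell applied to 5 of the 8 compared factors and to 38.1% of tested genes.

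The counts of the wider lists are read against the same shares of all tested genes, 7.60% higher and 10.7% lower. In the list of mRNA storage and translational control, 1 of 24 compared genes was higher in embryo 2 (Zar1) and 3 were lower (Cpeb2, Dazl and Igf2bp3), with a median of 0.01. The cap-binding Eif4e was its most abundant member at a mean of 1202 TPM, followed by Ybx1 (861.5) and Ybx3 (421.3). In the list of uridylation, deadenylation and decay, none of 18 was higher and 2 were lower (Tut4 and Zfp36l2), with a median of 0.10. Ythdf2, a reader of methylated mRNA, was highest there at a mean of 107.1 TPM, and the deadenylase subunit Pan3 (78.5) and the deadenylase-like Noct (46.4) followed. Zfp36l2 passed 2-fold in both ranges (-2.46 and -1.62), whereas Igf2bp3 did so in the upper range alone (-1.77, with -0.64 in the lower). Igf2bp3, Zfp36l2, Btg1 and Tob2 were named as called genes after their values were seen, since they complete these counts. In the BTG/TOB list 2 of 6 were higher (Btg1 and Tob2), with a median of 0.55 that was -0.21 in the lower number range and 0.85 in the upper. Btg1 had a difference of 1.29 over all cells, but of -2.47 in the lower range and 3.18 in the upper, and of -0.35 without embryo 1 cell 6, the cell at 0.61 TPM. Its mean TPM was 48.3 in embryo 1 and 46.0 in embryo 2, so it has no single direction here. For Tob2 the difference was 1.04, with 0.56 in the lower range and 1.28 in the upper, and both genes overlapped between embryos.

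Other transcripts that the oocyte stores gave a reference for the low factors. Of 10 listed, 8 could be compared, with a median difference of 0.04, and 5 were above 1 TPM in every cell. The zona pellucida genes Zp3 (mean 22.7 TPM) and Zp2 (6.70) and the growth factor Gdf9 (6.35) were highest. The others had lower means, namely Plat (5.22 TPM), Nlrp5 (5.06), Bmp15 (2.68), Oosp1 (2.59), Zp1 (1.26), H1foo (0.41) and Mos (0.21). The means of Zp2 and Gdf9 were close to those of Ybx2 (7.65), Dazl (5.09) and Btg4 (4.20), and that of Zp3 was higher. The Dazl mean rested mainly on 1 cell at 34.99 TPM, with 5 of 9 cells at 0, whereas Zp2 and Gdf9 were above 1 TPM in 9 of 9. Gdf9 had 2.49, 3.49 and 3.11 TPM in the embryo 1 cells. All embryo 2 cells were higher, from 4.25 to 13.98 TPM (a difference of 1.10, with 1.17 and 1.06 in the lower and upper number ranges), a separation seen upward in 0.83% of tested genes. Oosp1, which encodes an oocyte-secreted protein, had 4.29, 3.46 and 8.73 TPM in the embryo 1 cells. All embryo 2 cells were lower, with at most 2.82 TPM (a difference of -1.78, with -0.82 and -2.25 in the lower and upper number ranges), a separation seen downward in 2.51% of tested genes. These 2 were the listed oocyte transcripts past 2-fold without overlap, 1 of 8 compared in each direction, and Oosp1 was named for that reason. They differed between the embryos in opposite directions.

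The replication state of each factor's own locus was read from 40-kb bins of the DNA of the same cells, with each bin called replicated, unreplicated or without data by the authors. In embryo 2, 9 of the 10 loci were replicated in all 6 cells, as were those of 74.4% of 11257 genes with a mean TPM above 1. Dazl was the exception, replicated in cells 2, 5, 6 and 8 and unreplicated in cells 3 and 7. Its RNA was at 0, 0, 0 and 4.68 TPM in the former and at 3.29 and 0 TPM in the latter, so the values overlapped. In embryo 1 the loci were called unreplicated, apart from Cnot7 in cell 6 (its only bin) and Cpeb1 in cell 1 (all 4 bins). The study placed embryo 1 cells outside S phase and mentions regions with chromosomal abnormalities. A call in these cells is thus one of relative copy number and need not be replication of the locus. Cnot7 RNA in that cell, 93.79 TPM, was the highest of embryo 1, and Cpeb1 RNA in cell 1, 3.23 TPM, was the middle value of embryo 1. The other 7 loci had 1 call in all cells of an embryo, so for them RNA could not be compared between calls apart from the embryo. The 3 with mixed calls rest on 1 or 2 cells with one of the calls.

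The genes whose levels most resembled the most abundant and the most variable factor were ranked by Pearson's r of log2(TPM + 1) over the 9 cells, as a description, among genes with a mean above 10 TPM. For Cnot7 they were Mkks (r = 0.94), Sgo2a (0.94) and Rnf138 (0.92) of 6732 genes, and r was 0.91, 0.87 and 0.96 without embryo 2 cell 7. For Dazl they were Tmem159 (r = 0.92), Dlg1 (0.90) and Nfyc (0.90) of 6733 genes, and r was 0.83, 0.74 and 0.73 without embryo 1 cell 1. The 9 points share 2 embryos and 2 protocols, and the top of so long a ranking is large by selection.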

How the data were processed

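RNA and DNA of single blastomeres were used. The authors deposited TPM of 55487 genes and 142699 transcripts, estimated with RSEM after alignment to mm10 with the GENCODE M25 annotation in ramdaq, from reads set to a common number per cell. They also deposited a replication state score (1, -1 or 0) for 51976 bins of 40 kb, aligned with BWA 0.7.17-r1188 per the labels and called by AneuFinder.

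RNA column headers repeated 1 embryo and cell, so columns were assigned by the number that closes each title. In each table, 14 columns without a label were not used. Names and positions came from GENCODE M21 of the same build, which held 55141 of the gene identifiers.

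A difference was the mean log2(TPM + 1) of embryo 2 minus that of embryo 1, called at 1 or more (2-fold) for 13612 nuclear genes with a mean TPM above 1. The added 1 shrinks differences where TPM is low. Cells are not biological replicates, so no p-value was computed. The depth behind each value is not kept. The calculation was tested on simulated data with less spread between cells than in these data and with changes in more abundant genes only. That test does not cover the factors at low levels. The factors and lists were chosen with earlier results of these data known. Named were the 10 factors, their paralogs, the 3 highest genes of each list, listed genes past 2-fold without overlap, and the 3 genes closest to the most abundant and most variable factor. Python 3.11.15, numpy 2.4.6 and pandas 2.3.3 were used.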

Additional observations from a re-analysis of the deposited data

Results flagged for a closer look

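In embryo 2 cell 7, Cnot7 stood at 178.33 TPM, set apart from the next of the 6 embryo 2 cells at 81.04 TPM by 0.701 of the whole range. On the TPM scale this is past the limit of Dixon's test for a single distant value. The test was not repeated on log2(TPM + 1), where high values lie closer together, so the flag holds for TPM only. The same cell stood apart for Cnot6l, at 16.31 TPM with the next cell at 3.49 TPM (0.786 of the range). The 9 factors with signal in embryo 2 were examined. Chance marks about 1 in 20 such groups if the values are normally distributed, which was not examined for TPM. Embryo 2 cell 7 had 13.3% mitochondrial RNA and 11931 genes above 1 TPM, both within the range of the other cells of embryo 2, and the part of these in the result was not tested.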

How the results depend on the processing

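No paired analysis was possible because the results come from no test, and the cell numbers that both embryos share only name cells. The number of factors past 2-fold between embryos was 3 of 8, and became 5 with a pseudocount of 0.1, 1 with a pseudocount of 5, 1 in the upper number range alone, and 1 to 4 with each cell left out (1 without embryo 1 cell 1). Between the number ranges it was 2, and became 5 with a pseudocount of 0.1, 0 with a pseudocount of 5, 4 within embryo 1, and 1 to 4 with each cell left out (1 without embryo 1 cell 1 or embryo 2 cells 6 or 8, 4 without embryo 2 cell 3). The number without overlap between embryos was 0, and became 7 in the lower range (64.0% of all tested genes), 1 in the upper range (14.6%), 1 with TPM times transcript length, and 0 to 1 with each cell left out, the 1 being Tut4 without embryo 1 cell 7 or embryo 2 cell 2. Factors above the detection level in every cell fell from 2 to 1 at TPM > 5, and those with the polyadenylation element from 3 to 1 in the last 50 bases. The cause of these shifts was not tested. The median over the factors, -0.33, ran from -0.56 to -0.02 with each cell left out. Among single factors, Dazl (-4.12) and Zar1 (2.65) moved in the lower range and Zar1l (1.94) with a pseudocount of 0.1. No called factor reversed. Of the listed genes called, Btg1 reversed to -2.47 in the lower range and ran from -0.35 (without embryo 1 cell 6) to 2.80 (without embryo 1 cell 1) with each cell left out, Cpeb2 (-3.53) and Oosp1 (-0.82) moved in the lower range, Gdf9 (0.66) and Oosp1 (-0.77) moved with a pseudocount of 5, and Oosp1 (-3.44) with one of 0.1. Of the other alternatives, 150 for these summaries and the list medians and 248 for single genes moved by less than the spread between cells or by at most 1.5 times. TPM times length, the shares over all genes and overlap within both ranges were chosen after seeing the data. Reads were set to a common number per cell, but TPM does not keep the reads behind a gene, so values near 0 cannot be told from missed RNA.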
